A study of Mus musculus with 15 samples.

Results

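The 44 interferon-stimulated genes described here were taken by symbol from the count tables of 15 mouse liver libraries, and all 44 were found among 24499 gene rows and passed the filter on low counts. They comprise 28 antiviral effectors, 4 nucleic acid sensors, 4 regulators of interferon signalling and 8 GTPases best known as targets of interferon gamma. The study modelled acute injury on a chronically injured liver in adult male C57BL/6 mice. Carbon tetrachloride (CCl4), a toxin activated in hepatocytes, was injected into the abdomen at 0.2 ml/kg 2 times a week for 6 weeks. A second phase followed, with chow, or with ethanol through a gastric tube over 3 weeks, at doses that reached 25 g/kg/day, and with CCl4 at 0.5 times the earlier dose in the CCl4 arms.

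The tested arms and their controls were CCl4 with ethanol at day 20 (3 libraries, numbered 18, 19 and 20 in the labels), CCl4 with chow at day 20 (2, numbered 16 and 17), CCl4 at day 0 (2, numbered 3 and 4), OO with ethanol at day 20 (3, numbered 13, 14 and 15) and day 23 (1, numbered 6), OO with chow at day 20 (1, numbered 12) and day 23 (1, numbered 5), and OO at day 0 (2, numbered 1 and 2). OO is the labels' own code for animals without CCl4 and is not spelled out there. The ethanol arms also carry the label HFD and their controls the label chow, so ethanol and diet cannot be told apart. The day 23 libraries belong to another sub-study than the day 20 ones. The labels do not tie libraries to separate animals. The p-values below therefore reflect library-to-library spread, which may be technical.

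Interferons are secreted proteins that warn cells of viral nucleic acid. Type I interferons bind IFNAR and activate a complex that includes STAT2 and IRF9 and binds the interferon-stimulated response element (ISRE) in target promoters, which switches on antiviral genes. Interferon gamma, made by lymphocytes, acts through another element, the GAS site, and induces guanylate-binding proteins and immunity-related GTPases that attack the vacuoles of intracellular pathogens. In liver, hepatocytes, endothelium and Kupffer cells, the resident macrophages, all respond to interferon.

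Promoters of RefSeq transcripts (assembly GRCm38.p6, from 250 bases before to 50 after the start) were matched by symbol for 31 members. The ISRE core, GAAA then any 2 bases then GAAA, was searched on both strands with overlapping matches counted. It was present in 18 of the 31 genes, 58.1%, against 3.99% of all 27025 genes. It was found in all 6 GTPases matched and in 12 of 25 genes of the other lists. The GAS core, TTC then any 3 bases then GAA, was present in 7 of the 31 genes, 22.6%, against 9.55% of all genes, and in 1 of the 7 it overlapped an ISRE match. The 150 bases before the start are shown 5′ to 3′ on the gene's strand for members named below, with the ISRE matches in capitals, so that the shared element and its differing position can be seen.
Ifit1 (chr19:34640739-34640888, plus strand): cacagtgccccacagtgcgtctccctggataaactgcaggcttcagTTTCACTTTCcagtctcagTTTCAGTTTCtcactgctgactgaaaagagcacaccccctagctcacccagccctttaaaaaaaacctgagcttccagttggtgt
Isg15 (chr4:156200819-156200968, minus strand): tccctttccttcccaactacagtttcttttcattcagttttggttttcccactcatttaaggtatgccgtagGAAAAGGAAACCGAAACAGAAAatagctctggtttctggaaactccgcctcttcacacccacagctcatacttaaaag
Rsad2 (chr12:26456453-26456602, minus strand): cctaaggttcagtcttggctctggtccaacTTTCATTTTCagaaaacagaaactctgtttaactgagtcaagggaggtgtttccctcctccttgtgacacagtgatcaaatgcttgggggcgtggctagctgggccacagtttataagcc
Oas1a (chr5:120907526-120907675, minus strand): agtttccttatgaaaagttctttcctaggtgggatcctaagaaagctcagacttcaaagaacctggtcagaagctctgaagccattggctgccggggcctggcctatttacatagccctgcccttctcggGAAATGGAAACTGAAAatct
Oas1g (chr5:120887614-120887763, minus strand): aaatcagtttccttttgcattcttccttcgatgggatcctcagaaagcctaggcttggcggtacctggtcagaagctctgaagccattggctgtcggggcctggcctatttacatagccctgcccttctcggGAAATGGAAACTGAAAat
Trim30a (chr7:104465194-104465343, minus strand): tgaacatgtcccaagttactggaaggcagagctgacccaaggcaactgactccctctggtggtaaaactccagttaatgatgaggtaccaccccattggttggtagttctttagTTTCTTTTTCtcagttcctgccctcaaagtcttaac
Gbp2 (chr3:142620513-142620662, plus strand): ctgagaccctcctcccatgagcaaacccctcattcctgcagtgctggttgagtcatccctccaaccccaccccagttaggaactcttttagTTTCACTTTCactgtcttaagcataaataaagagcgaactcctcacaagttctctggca
Gbp3 (chr3:142559894-142560043, plus strand): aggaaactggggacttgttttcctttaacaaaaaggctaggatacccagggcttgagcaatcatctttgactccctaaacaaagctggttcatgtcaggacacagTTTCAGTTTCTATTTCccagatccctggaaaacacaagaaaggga
Irgm1 (chr11:48871421-48871570, minus strand): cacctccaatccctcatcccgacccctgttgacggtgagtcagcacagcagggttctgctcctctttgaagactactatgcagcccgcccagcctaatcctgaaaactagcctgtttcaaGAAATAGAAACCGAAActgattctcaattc
The matches begin between 130 bases before the start, in Bst2, and 12 bases before it, in Oas1g, among the genes whose match lies in the 150 bases before the start. Isg15 holds 3 overlapping matches, Irgm1, Gbp3, Oas1a and Oas1g hold 2 overlapping ones, and Ifit1 holds 2 separate ones. Near the start the windows of Oas1a and Oas1g read alike.

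Reads of near-identical genes limit 8 members, in which at least 10% of the 50-base stretches of the transcripts occur in another gene of GENCODE M21. The share was 59.7% for Gbp6, 57.6% for Oas1a, 54.7% for Oas1g, 51.2% for Ifit3, 23.8% for Herc6, 13.6% for Rtp4, 12.8% for Gbp7 and 12.3% for Igtp, and their values are uncertain. Exons of Parp9 and Dtx3l overlap on opposite strands over 458 bases and those of Igtp and Irgm2 on the same strand over 162 bases. Reads counted in genes numbered about 10347800 in the smallest library and 28843300 in the largest, and 47.0% to 58.6% of the reads listed named no gene. Libraries 6 and 12 carried 176 and 173 CPM of 12 pancreatic enzyme genes, against at most 14.0 CPM in the other libraries. The 5 hepatocyte markers, none at 0 in any library, summed to between 69268 and 99833 CPM. Some markers of scarcer cells were at 0 in at least 1 library, namely Cd3d and Gzmb of 10 T and NK cell markers, Ms4a1 of 4 B cell markers, and Siglech, Cox6a2 and Klk1 of 5 plasmacytoid dendritic cell markers.

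Values below are TMM-normalised CPM, in which the reads of a gene are scaled to the reads counted in all genes of the library. Per kilobase of exon, the most abundant members were Bst2, which tethers budding virions to the cell (102 CPM per kb on average over the 15 libraries), Iigp1, an immunity-related GTPase (64.3 CPM per kb), and Ifi27, a small membrane protein (50.5 CPM per kb). The lowest were Oas3 at 0.663 and Ifi44 at 0.753 CPM per kb. Iigp1 lay between 304 and 525 CPM in all libraries, and its highest group mean was 1.58 times the lowest. Ifi44 had the widest spread of group means, 6.43 times, followed by Ifit1 at 6.40 times and Oas1g at 6.38 times. For all of these the lowest group was library 6 alone, and for Ifit1 the highest was library 12 alone. Both libraries carried the pancreatic transcripts, and they belong to different sub-studies.

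The CCl4 chow livers at day 20 had the highest group mean for 23 of the 44 members, and the single OO chow library of day 20 for a further 12. Group means were lowest in the OO ethanol library of day 23 for 18 members and in CCl4 livers at day 0 for 15. Relative to the mean of the OO day 0 libraries, the median log2 ratio over the 44 members was 0.95 and 0.71 in the CCl4 chow libraries 16 and 17. It was 0.40, 0.19 and 0.18 in the CCl4 ethanol libraries, and −0.18 and −0.16 in the CCl4 day 0 libraries. Among OO livers it was 0.01, −0.20 and −0.33 with ethanol at day 20 and −0.32 at day 23, against 0.82 in the day 20 chow library and 0.30 in the day 23 one. Chow libraries of both arms stood above the ethanol libraries of the same arm. The antiviral effectors and the GTPases were far apart in the CCl4 chow libraries, with medians of 1.19 and 0.97 for effectors and 0.34 and 0.23 for GTPases.

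**Figure D1:**
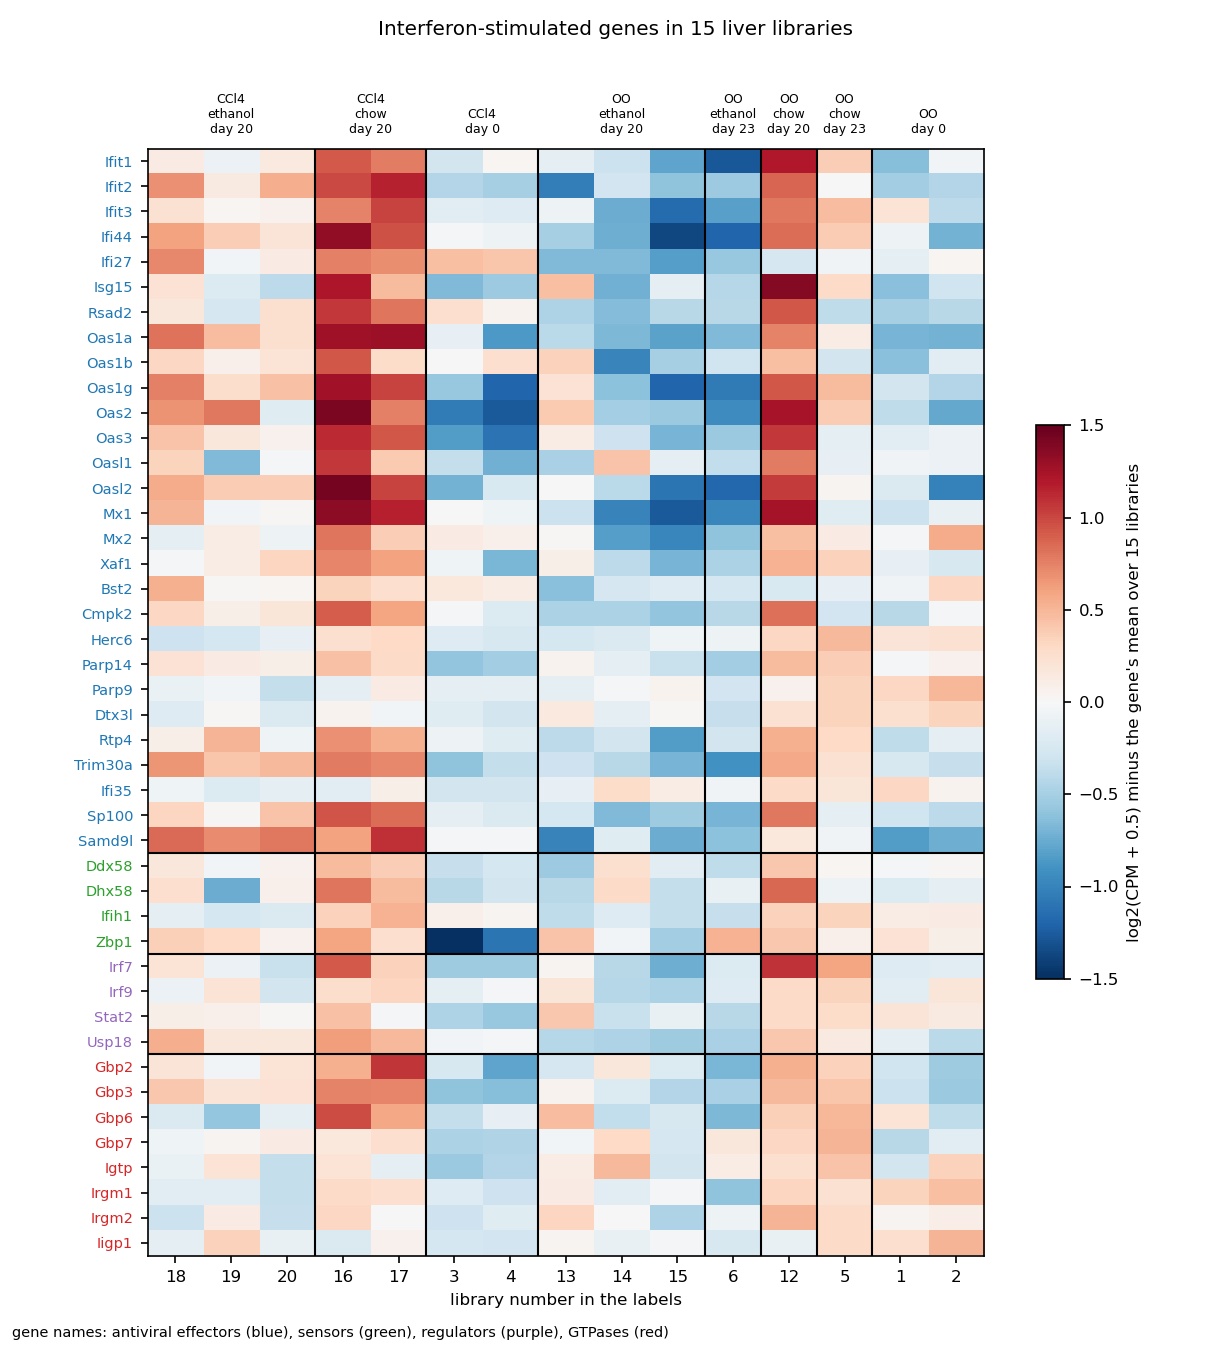
Level of each of the 44 genes (rows, grouped by role) in each of the 15 libraries (columns, by group), as log2(CPM + 0.5) minus the gene's mean over the libraries. Libraries 16, 17 and 12, all from chow-fed animals at day 20, are red for most antiviral effectors, while the GTPases at the bottom show weaker contrasts.

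Transcripts of the interferon genes looked up, Ifnk apart, were nearly absent. Of the Ifna genes only Ifna1, Ifna2 and Ifna4 were looked up. Ifnb1, Ifna1, Ifna2, Ifne, Ifnl2 and Ifnl3 had 0 counts in all 15 libraries, which together allow up to 0.0133 CPM at 3 counts. Ifna4 had 1 count, in library 17. Ifng, the gamma ligand, had 8 counts in all, spread over 4 libraries with at most 3 in any, so no comparison of it is possible at this depth. Ifnk was the only ligand gene of those looked up with counts in every library, between 0.708 and 2.27 CPM. The receptor subunit genes Ifnar1 and Ifnar2 lay at 55.8 to 72.4 CPM and 52.2 to 86.8 CPM, and neither passed the test in any comparison. These floors cover counting error only.

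The widest set of changes separated CCl4 livers on chow at day 20 from CCl4 livers at day 0, a comparison of the later, lower-dose phase with the end of the first phase in which time, dose and feeding cannot be told apart. Of the 44 members 29 rose and 0 fell (edgeR quasi-likelihood test, adjusted p under 0.05), where 7.27% of all 14778 genes rose and 4.2% fell. The median log2 change was 0.92 over the members and 0.02 over all genes. All 44 estimates were positive, and in 43 members, all but Parp9, both later libraries lay above both earlier ones, as they did in 30.9% of all genes tested. By role, 20 of 28 effectors, 2 of 4 sensors, 2 of 4 regulators and 5 of 8 GTPases rose.

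The 3 largest estimates of the members were those of Oas2, Oas1g and Oas3, oligoadenylate synthetases, which make the second messenger that activates RNase L. Oas3 had 9.66 and 8.43 CPM in CCl4 chow livers at day 20, against 2.13 and 1.68 CPM in CCl4 livers at day 0. The groups are well apart, and the log2 change was 2.23 ± 0.30 (SE; edgeR adjusted p = 0.00166). Oas2 had 19.0 and 11.9 CPM in CCl4 chow livers at day 20, against 3.07 and 2.57 CPM at day 0. Its log2 change of 2.44 ± 0.43 was the largest of the members (edgeR adjusted p = 0.00595). Oas1a had 14.7 and 14.9 CPM in CCl4 chow livers at day 20, against 5.26 and 2.97 CPM at day 0. That is a log2 change of 1.82 ± 0.28 (edgeR adjusted p = 0.0032), and part of its reads may belong to Oas1g. Oasl2 had 19.2 and 14.2 CPM in the CCl4 chow livers, against 3.94 and 5.74 CPM at day 0 (log2 change 1.80 ± 0.37, edgeR adjusted p = 0.0111). The family was not uniform, with a rise of 1.33 ± 0.36 for Oasl1 (edgeR adjusted p = 0.0382) and an estimate of 0.62 ± 0.49 for Oas1b, which did not pass (edgeR adjusted p = 0.462).

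Trim30a, a mouse TRIM protein that restrains inflammatory signalling, had 33.4 and 32.0 CPM in CCl4 chow livers at day 20, against 12.5 and 14.9 CPM in CCl4 livers at day 0. The libraries of a group nearly coincide, and the change of 1.26 ± 0.17 on the log2 scale had the smallest p among the members (edgeR adjusted p = 0.00156). Parp14, an ADP-ribosyltransferase, had 138 and 124 CPM in the later livers, against 67.2 and 70.4 CPM in the earlier ones (log2 change 0.93 ± 0.14, edgeR adjusted p = 0.00273). Ifit1, which binds viral RNA with an incomplete cap, had 14.8 and 13.3 CPM in CCl4 chow livers, against 6.14 and 7.71 CPM at day 0, a 2.03-fold difference (edgeR adjusted p = 0.03). Isg15, a ubiquitin-like protein joined to viral and host proteins, had 8.19 and 4.71 CPM in CCl4 chow livers, against 1.88 and 2.08 CPM (log2 change 1.71 ± 0.44, edgeR adjusted p = 0.0313). Ifit3 and Rsad2, which encodes viperin, rose by 1.09 ± 0.31 and 0.80 ± 0.20 on the log2 scale (edgeR adjusted p = 0.0422 and 0.0268). The abundant Bst2 stood at 114 and 108 CPM, against 101 and 97.6 CPM at day 0, and did not pass (log2 change 0.16 ± 0.20, edgeR adjusted p = 0.673).

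Of the sensors, Zbp1, which binds nucleic acid in the Z form and can start necroptosis, had 14.8 and 11.6 CPM in CCl4 chow livers at day 20, against 2.76 and 4.25 CPM in CCl4 livers at day 0 (log2 change 1.93 ± 0.31, edgeR adjusted p = 0.00393). Ddx58, encoding the RNA sensor RIG-I, rose by 0.74 ± 0.20 on the log2 scale (edgeR adjusted p = 0.0389), and the estimate for Ifih1, encoding the sensor MDA5, was 0.38 ± 0.12 (edgeR adjusted p = 0.0656). Irf7, the transcription factor that amplifies type I interferon production, had 61.5 and 41.4 CPM in the CCl4 chow livers, against 22.1 and 22.2 CPM at day 0 (log2 change 1.22 ± 0.26, edgeR adjusted p = 0.0143). Usp18, which removes ISG15 and dampens IFNAR signalling, rose by 0.61 ± 0.18 (edgeR adjusted p = 0.0478). The complex partners Stat2 and Irf9 had estimates of 0.74 ± 0.22 and 0.39 ± 0.23 (edgeR adjusted p = 0.0502 and 0.315).

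Of the GTPases, the guanylate-binding proteins Gbp2, Gbp3, Gbp6 and Gbp7 and the immunity-related GTPase Irgm1 rose. Gbp3 had 18.7 and 18.5 CPM in CCl4 chow livers at day 20, against 7.01 and 6.82 CPM in CCl4 livers at day 0 (log2 change 1.42 ± 0.19, edgeR adjusted p = 0.00164). Gbp2 had 14.7 and 21.5 CPM in the later livers, against 8.33 and 5.54 CPM (log2 change 1.37 ± 0.26, edgeR adjusted p = 0.00749). Gbp6 and Gbp7 rose by 1.08 ± 0.31 and 0.68 ± 0.18 on the log2 scale (edgeR adjusted p = 0.0449 and 0.0328). Irgm1, which regulates the other immunity-related GTPases, had 73.9 and 71.8 CPM, against 52.7 and 48.6 CPM at day 0 (log2 change 0.53 ± 0.13, edgeR adjusted p = 0.0281). Igtp, Irgm2 and Iigp1 did not pass, with estimates of 0.56 ± 0.28, 0.42 ± 0.24 and 0.20 ± 0.19 (edgeR adjusted p = 0.229, 0.293 and 0.538).

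Other genes of the pathway gave 31 of 79 tested that rose and 0 that fell in this comparison. Tlr7, an endosomal RNA receptor, rose by 2.03 ± 0.21 on the log2 scale (edgeR adjusted p = 0.000447), Samhd1, a nucleotide hydrolase, by 1.10 ± 0.16 (edgeR adjusted p = 0.00234), and Irf8, a myeloid transcription factor, by 1.29 ± 0.19 (edgeR adjusted p = 0.00264). Irf1 had an estimate of 0.20 ± 0.21 (edgeR adjusted p = 0.575). Macrophage transcripts moved with the members. All 8 Kupffer cell markers rose, summing to 1020 and 1065 CPM in CCl4 chow livers at day 20 and to 398 and 378 CPM in CCl4 livers at day 0. All 6 monocyte markers rose, summing to 466 and 922 CPM at day 20 and to 123 and 122 CPM at day 0, and no marker of either list was at 0. Sums of other immune cell markers were apart as well. T and NK cell markers summed to 7.30 and 10.6 CPM in CCl4 chow livers and to 4.25 and 4.95 CPM at day 0, with 0 of 10 called. Plasmacytoid dendritic cell markers summed to 23.0 and 29.3 CPM in CCl4 chow livers and to 9.20 and 11.9 CPM at day 0, and of these 5 genes Lair1, a receptor found on many leukocytes, rose (log2 change 1.66 ± 0.21, edgeR adjusted p = 0.0013). B cell markers were slightly lower at day 20, at 10.1 and 10.3 CPM, against 10.5 and 10.98 CPM. The part of these cells in the result was not tested, and in whole liver fewer cells of a type and less RNA per cell cannot be told apart. With 1 library fewer the count of members that rose was 7 without library 3, 6 without library 4, 11 without library 16 and 14 without library 17. The calls of Trim30a, Gbp3, Oas3, Parp14 and Oas1a held in all 12 alternatives run.

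**Figure D2:**
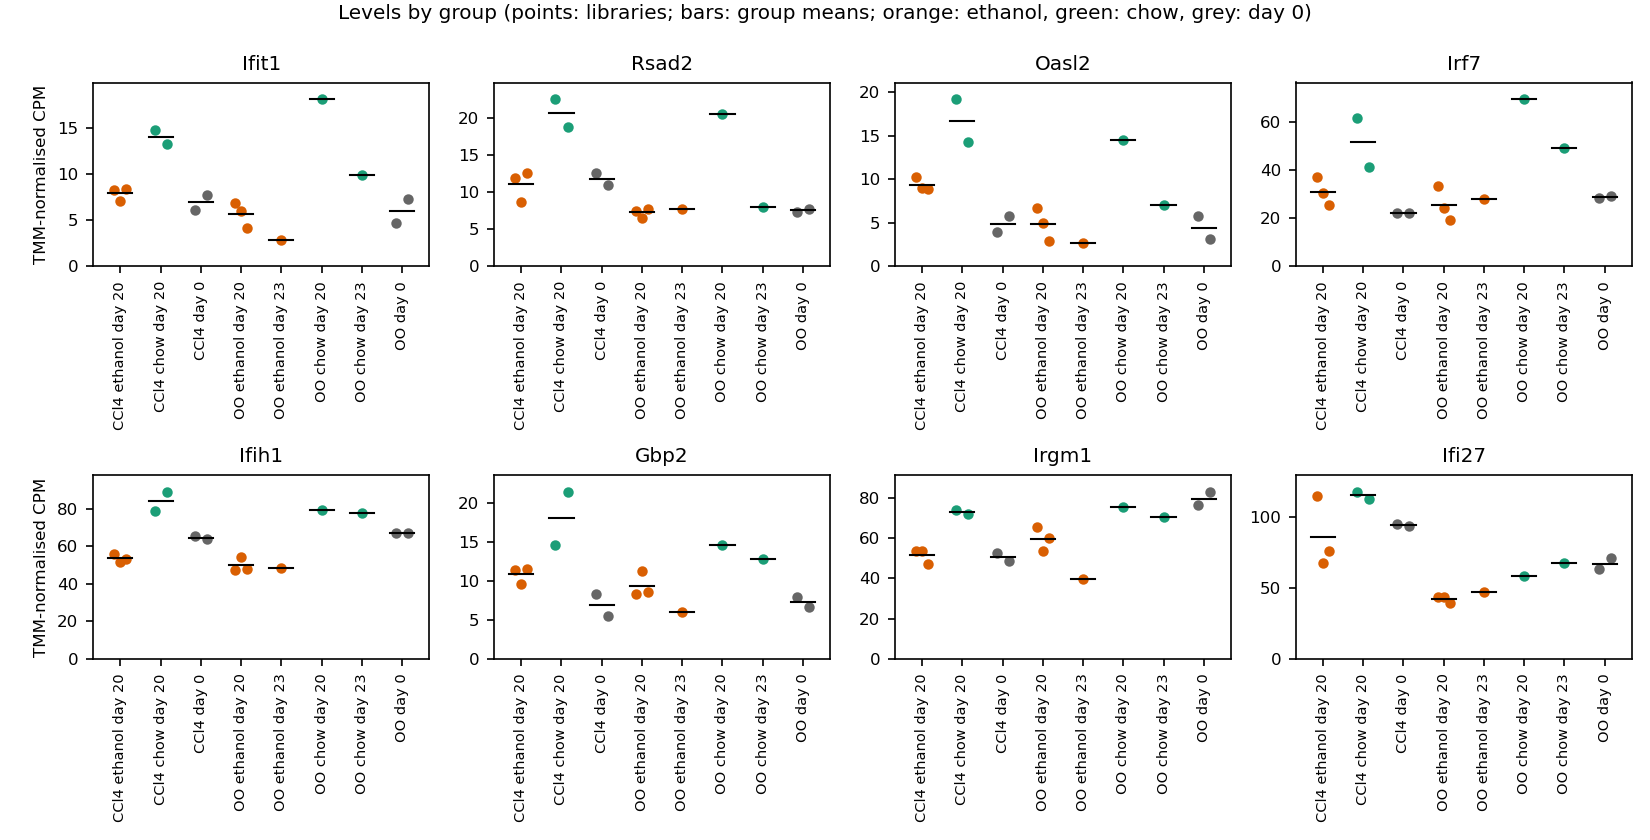
TMM-normalised CPM of 8 members by group, with points for libraries and bars for group means, on axes that start at 0. The CCl4 chow libraries at day 20 lie above the CCl4 ethanol libraries for Ifit1, Rsad2, Oasl2, Irf7, Ifih1, Gbp2 and Irgm1, whereas 1 Ifi27 value of the ethanol group lies between those of the chow libraries.

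Ethanol in CCl4 livers was set against chow in CCl4 livers at day 20 (3 libraries and 2). Here 2 of 44 members fell and 0 rose, where 0.765% of all genes fell and 0.501% rose. The other members leaned the same way without passing. Estimates were negative for 43 of 44, the median log2 change was −0.54 over the members and 0.01 over all genes, and in 30 members all ethanol libraries lay below both chow libraries, as they did in 13.5% of all genes tested. At an unadjusted p under 0.05 there were 24 members, all with lower estimates, where of all 14778 genes 950 were lower and 798 higher at that level.

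Ifih1 had 56.0, 51.7 and 53.0 CPM in CCl4 ethanol livers, against 78.8 and 89.1 CPM in CCl4 chow livers. The groups are clearly apart, and the log2 change was −0.65 ± 0.11 (edgeR adjusted p = 0.017). Rsad2 had 11.9, 8.77 and 12.6 CPM in CCl4 ethanol livers, against 22.6 and 18.8 CPM in CCl4 chow livers (log2 change −0.90 ± 0.18, edgeR adjusted p = 0.0365). Ifit1 had 8.27, 7.11 and 8.42 CPM with ethanol, against 14.8 and 13.3 CPM with chow, and did not pass (log2 change −0.82 ± 0.23, edgeR adjusted p = 0.14). Isg15, Irf7 and Gbp2 likewise had negative estimates, of −1.08 ± 0.37, −0.72 ± 0.23 and −0.74 ± 0.22 (edgeR adjusted p = 0.256, 0.207 and 0.181). Iigp1 gave the only positive one, 0.12 ± 0.17. Of 79 other pathway genes 0 passed. Kupffer markers summed to 1006 to 1427 CPM with ethanol and 1020 to 1065 CPM with chow, and monocyte markers to 621 to 718 CPM with ethanol and 466 to 922 CPM with chow, and in both lists the groups overlapped. Of these 14 markers Timd4, a Kupffer cell receptor for dying cells, fell (log2 change −1.30 ± 0.27, edgeR adjusted p = 0.0472). Other sums did not overlap. T and NK cell markers summed to 3.96 to 5.70 CPM with ethanol and 7.30 to 10.6 CPM with chow, B cell markers to 2.76 to 6.29 CPM with ethanol and 10.1 to 10.3 CPM with chow, and sinusoidal endothelial markers to 363 to 434 CPM with ethanol and 436 to 502 CPM with chow. Plasmacytoid dendritic cell markers were higher, at 30.8 to 34.0 CPM with ethanol and 23.0 to 29.3 CPM with chow. No gene of these 4 lists passed, and their part in the result was not tested. The count was 1 without library 16 or library 19 and 0 without library 17 or library 20. Fitting the 5 libraries alone also left 0, and DESeq2 called 6.

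CCl4 livers with ethanol at day 20 were also set against CCl4 livers at day 0, a comparison added after the data were seen that shares its day 0 libraries with the chow comparison above. In it 11 of 44 members rose and 0 fell, where 11.6% of all genes rose and 9.11% fell. The members were 8 effectors, the sensor Zbp1 and the GTPases Gbp3 and Gbp7. The median log2 change was 0.36. Zbp1 had 12.4, 12.0 and 10.1 CPM in CCl4 ethanol livers, against 2.76 and 4.25 CPM at day 0 (log2 change 1.74 ± 0.30, edgeR adjusted p = 0.00198). Trim30a had 30.9, 25.9 and 27.3 CPM in CCl4 ethanol livers, against 12.5 and 14.9 CPM at day 0 (log2 change 1.04 ± 0.16, edgeR adjusted p = 0.000984). Both genes were well above day 0 in every later library. Ifit1 and Ifih1 did not pass, with estimates of 0.20 ± 0.24 and −0.27 ± 0.11. Monocyte and Kupffer markers rose here too, 6 of 6 and 7 of 8, as did Lair1 of the plasmacytoid list, while the B cell marker Cd79b and the endothelial marker Kdr fell, and their part in the result was not tested. The count was 6 without library 3, 4 without library 4 and 7 without library 18.

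CCl4 livers were compared with OO livers under ethanol at day 20 (3 libraries each). Of the 44 members 15 rose and 0 fell, where 12.7% of all genes rose and 11% fell. The lists parted here. Of 28 antiviral effectors 13 rose, with a median log2 change of 0.69, while of the 8 GTPases only Gbp3 rose and the list's median was −0.07. Over all genes the median was −0.04.

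Trim30a had 30.9, 25.9 and 27.3 CPM in CCl4 ethanol livers, against 15.5, 14.3 and 11.7 CPM in OO ethanol livers (log2 change 1.02 ± 0.14, edgeR adjusted p = 0.000455). Samd9l, an antiviral and growth-restraining protein, had 77.2, 70.1 and 73.9 CPM in CCl4 ethanol livers, against 21, 37.7 and 25.3 CPM in OO ethanol livers (log2 change 1.39 ± 0.19, edgeR adjusted p = 0.000586). Ifi27 had 115, 67.6 and 76.1 CPM in CCl4 ethanol livers, against 43.8, 43.7 and 39.1 CPM (log2 change 1.03 ± 0.17, edgeR adjusted p = 0.00157). In all these genes the groups did not overlap, although library 18 was far above the other CCl4 libraries for Ifi27. Usp18 had 18.5, 14.2 and 14.1 CPM with CCl4, against 9.21, 8.98 and 8.50 CPM without (log2 change 0.81 ± 0.15, edgeR adjusted p = 0.00245). Ifit2, of the same RNA-binding family as Ifit1, rose by 1.13 ± 0.21 (edgeR adjusted p = 0.00271). These 5 calls held in all 14 alternatives run.

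Rsad2, Oasl2 and Bst2 rose by 0.61 ± 0.17, 0.95 ± 0.30 and 0.56 ± 0.17 on the log2 scale (edgeR adjusted p = 0.0221, 0.0386 and 0.031), and each lost its call in at least 4 alternatives. Gbp3 had 14.6, 12.5 and 12.7 CPM in CCl4 ethanol livers, against 11.3, 9.34 and 7.88 CPM in OO ethanol livers (log2 change 0.48 ± 0.15, edgeR adjusted p = 0.0397). No sensor passed, with estimates between 0.04 and 0.26. Irgm1 had 53.4, 53.6 and 47.1 CPM with CCl4, against 65.6, 53.7 and 59.9 CPM without, all lower but not past the test (log2 change −0.21 ± 0.11, edgeR adjusted p = 0.18). Iigp1 had 335, 471 and 341 CPM with CCl4, against 379, 341 and 366 CPM without, and the groups overlapped. Isg15 had an estimate near 0 (−0.00 ± 0.36, edgeR adjusted p = 0.996).

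Of 79 other pathway genes 24 rose and 5 fell under ethanol. Tlr7 rose by 1.34 ± 0.16 (edgeR adjusted p = 0.000245), the gamma receptor subunit Ifngr1 by 1.13 ± 0.14 (edgeR adjusted p = 0.000348) and Irf8 by 1.17 ± 0.16 (edgeR adjusted p = 0.000463). All 6 monocyte markers rose, summing to 621 to 718 CPM in CCl4 ethanol livers and 91.7 to 151 CPM in OO ethanol livers. Of 8 Kupffer markers 5 rose and 1 fell, with sums of 1006 to 1427 CPM in CCl4 ethanol livers and 627 to 828 CPM in OO ethanol livers. Sums of plasmacytoid dendritic cell markers, 30.8 to 34.0 CPM in CCl4 ethanol livers and 15.8 to 18.2 CPM in OO ethanol livers, did not overlap either, nor did those of T and NK cells or B cells. Of these 3 lists Lair1 rose, and of the endothelial list Kdr fell. Their part in the members' result was not tested. The count of members that rose ran from 10, without library 18, to 22, without library 13.

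**Figure D3:**
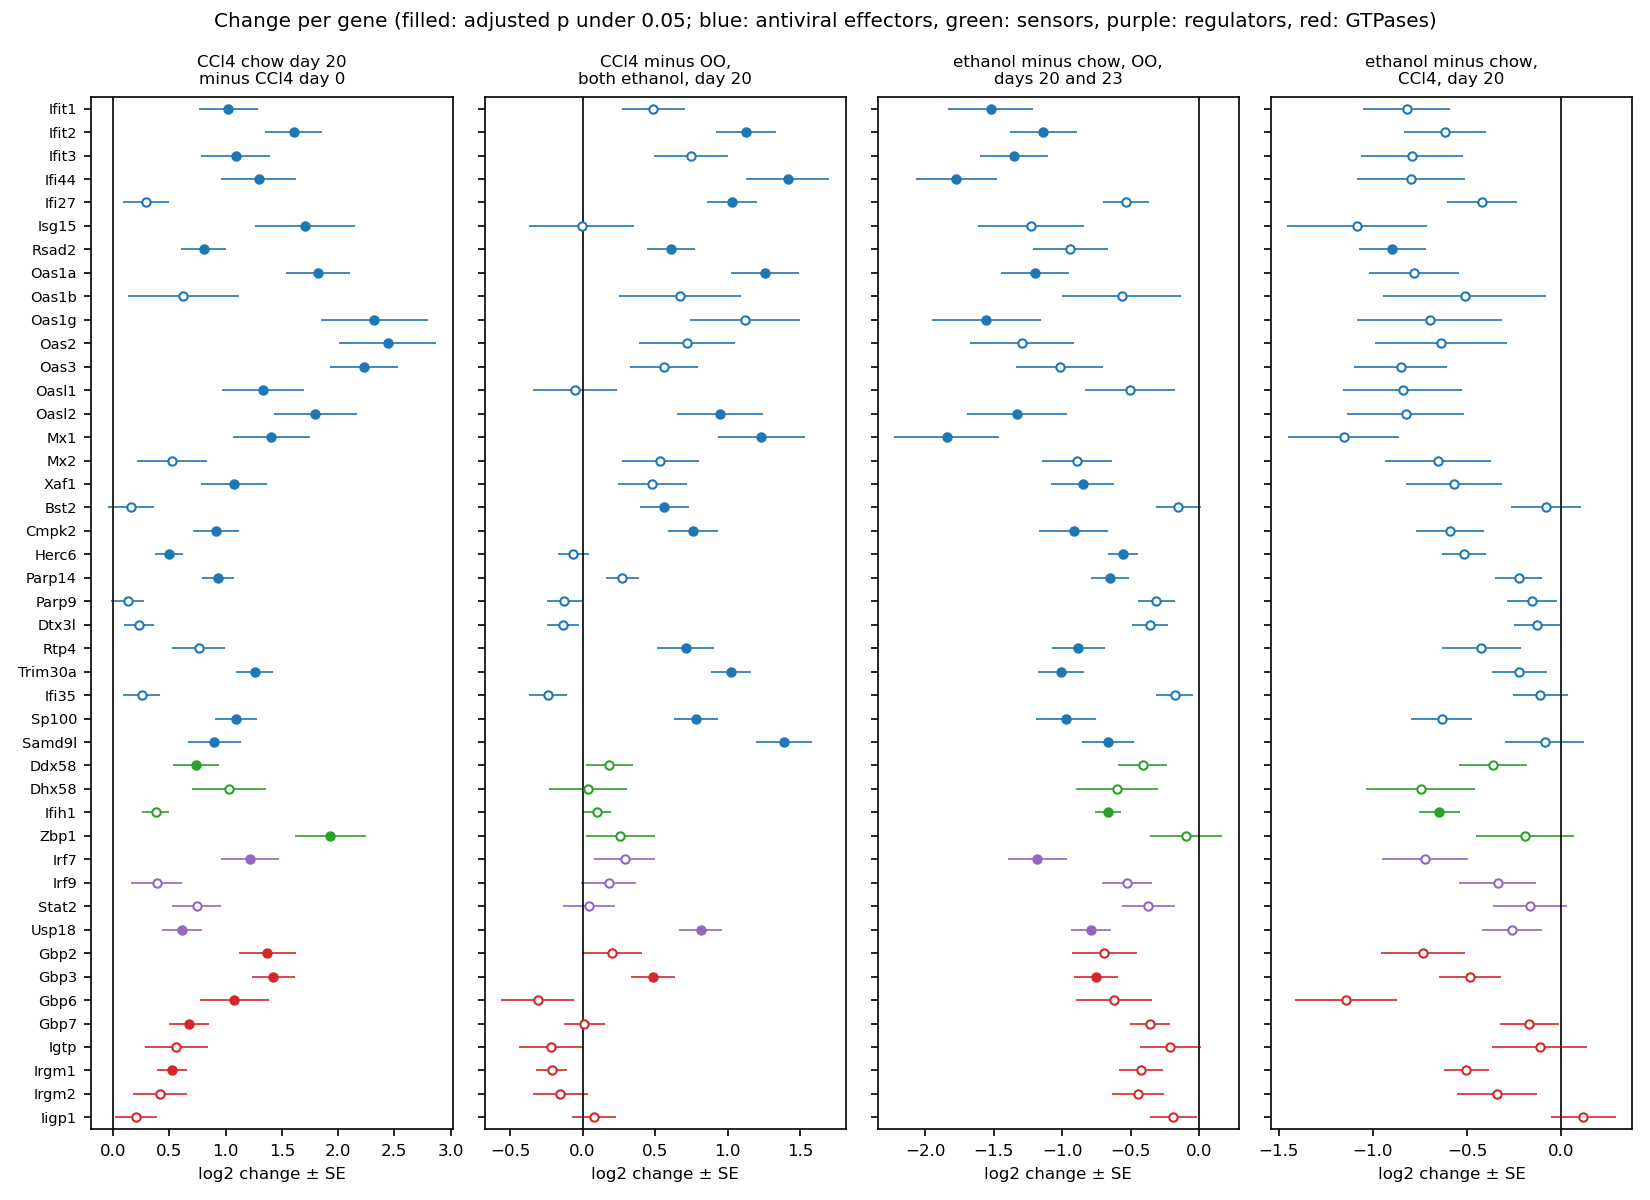
Log2 change (horizontal axis, with SE as bars) of each of the 44 members in 4 comparisons, grouped by role, with filled points for an adjusted p under 0.05 by edgeR's quasi-likelihood test. All points lie right of 0 in the panel of CCl4 chow day 20 against CCl4 day 0 and left of 0 in the panel of ethanol against chow in OO livers, and the GTPases sit around 0 in the panel of CCl4 against OO under ethanol.

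Ethanol in OO livers (libraries 13, 14 and 15 of day 20 and library 6 of day 23) was set against chow in OO livers (library 12 of day 20 and library 5 of day 23). Of the 44 members 20 fell and 0 rose, where 3.53% of 14315 genes fell and 4.43% rose. All 44 estimates were negative, with a median log2 change of −0.68 over the members and −0.01 over all genes. In 29 members all 4 ethanol libraries lay below both chow libraries, as they did in 13.8% of all genes tested. By role, 16 of 28 effectors, 1 of 4 sensors, 2 of 4 regulators and 1 of 8 GTPases fell.

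Ifih1 had 47.5, 54.3, 48.1 and 48.7 CPM in OO ethanol livers, against 79.1 and 78.0 CPM in OO chow livers. Both groups were tight and apart, and the log2 change was −0.66 ± 0.10 (edgeR adjusted p = 0.00226). Irf7 had 33.2, 24.0, 19.3 and 28.1 CPM with ethanol, against 69.3 and 49.1 CPM with chow (log2 change −1.18 ± 0.22, edgeR adjusted p = 0.00759). Ifi44 had 2.68, 2.19, 1.24 and 1.47 CPM with ethanol, against 7.51 and 5.33 CPM with chow (log2 change −1.77 ± 0.29, edgeR adjusted p = 0.00479). Groups did not overlap for either gene. Trim30a had 15.5, 14.3, 11.7 and 10.03 CPM with ethanol, against 28.8 and 22.6 CPM with chow (log2 change −1.01 ± 0.17, edgeR adjusted p = 0.00506). Ifit3 had 10.9, 6.63, 4.87 and 6.30 CPM with ethanol, against 20.2 and 16.1 CPM with chow (log2 change −1.35 ± 0.25, edgeR adjusted p = 0.00814). Mx1, a GTPase that blocks influenza viruses and is defective in many inbred mouse strains, had 2.48, 1.36, 1.06 and 1.40 CPM with ethanol, against 8.38 and 2.80 CPM with chow. It had the most negative estimate of the members, −1.85 ± 0.38 (edgeR adjusted p = 0.0135), while its chow libraries differed widely.

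Ifit1, Oasl2 and Usp18 fell by 1.52, 1.33 and 0.79 on the log2 scale (edgeR adjusted p = 0.0119, 0.0418 and 0.00872). Rsad2 had 7.53, 6.58, 7.79 and 7.81 CPM with ethanol, against 20.5 CPM in chow library 12 and 8 CPM in chow library 5. Library 12 stood far above the ethanol libraries and library 5 only just above them. Rsad2 did not pass (log2 change −0.94 ± 0.27, edgeR adjusted p = 0.0518). Isg15 did not pass either (−1.23 ± 0.39, edgeR adjusted p = 0.0699). Of the GTPases, Gbp3 had 11.3, 9.34, 7.88 and 7.62 CPM with ethanol, against 15.5 and 14.7 CPM with chow (log2 change −0.75 ± 0.16, edgeR adjusted p = 0.0152). Gbp2 and Irgm1 had estimates of −0.69 ± 0.24 and −0.42 ± 0.16 (edgeR adjusted p = 0.0915 and 0.12), and Igtp and Iigp1 of −0.21 ± 0.22 and −0.19 ± 0.17.

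Among 79 other pathway genes 19 fell and 1 rose. Irf5 fell by 0.81 on the log2 scale (edgeR adjusted p = 0.00649), Slfn8 by 1.25 (edgeR adjusted p = 0.0107) and Samhd1 by 0.76 (edgeR adjusted p = 0.0125). Kupffer and monocyte markers moved the same way, with 4 of 8 and 4 of 6 falling. Kupffer sums were 627 to 828 CPM with ethanol, against 1454 CPM in chow library 12 and 965 CPM in chow library 5. Monocyte sums were 64.8 to 151 CPM with ethanol, against 483 CPM in library 12 and 207 CPM in library 5. Lymphocyte transcripts were lower too. T and NK cell markers summed to 2.12 to 3.27 CPM with ethanol and 4.94 to 6.64 CPM with chow, and of the 7 tested Cd4 fell by 2.66 on the log2 scale (edgeR adjusted p = 0.00398). B cell markers summed to 1.86 to 2.60 CPM with ethanol and 3.71 to 5.06 CPM with chow, and of 4 Cd79b fell by 1.25 (edgeR adjusted p = 0.0493). Sinusoidal endothelial sums were 384 to 450 CPM with ethanol and 462 to 474 CPM with chow, with 0 of 6 called. The part of these cells in the result was not tested.

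The calls in OO livers rest on library 12. With it left out 0 members passed, as with the 6 libraries fitted alone and with libraries 6 and 12 both left out, and without library 13 there were 31. With the sub-study of the titles as a term in the fit, an alternative added after the data were seen, 27 members fell, the 20 included, with a median log2 change of −0.78. When the 3 ethanol libraries of day 20 were set against library 12 alone, 16 members fell and the median log2 change was −0.85. Set against library 5 alone, 0 passed, yet 43 of 44 estimates were still negative with a median of −0.51. Ifih1 was nearly as far down under either control, −0.66 with library 12 and −0.64 with library 5, and so was Gbp3, −0.71 and −0.63. Rsad2 and Mx1 were not, at −1.50 and −2.38 with library 12 and −0.14 and −0.80 with library 5. Oasl1 was 0.12 with library 5, and Iigp1 was 0.08 with library 12. The median of the 36 genes outside the GTPase list was −1.02 with library 12 and −0.55 with library 5, and that of the GTPases −0.36 and −0.38.

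**Figure D4:**
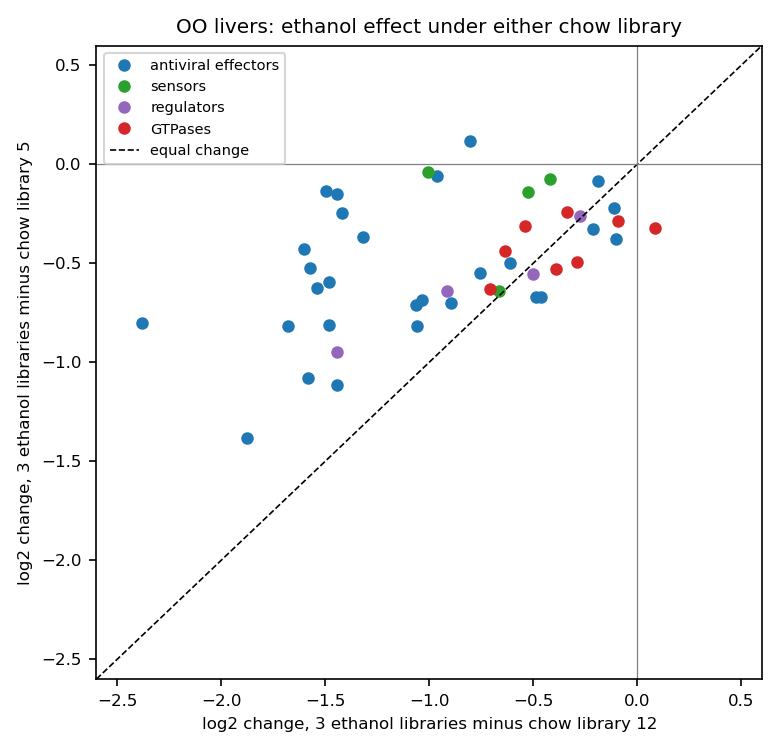
Log2 change of the 44 members in OO livers when 3 ethanol libraries of day 20 are set against chow library 12 (horizontal axis) or chow library 5 (vertical axis), with the dashed line marking equal change. Most antiviral effectors lie above the line, with a larger decrease against library 12, and the GTPases lie near it.

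CCl4 was compared with OO under chow (libraries 16 and 17 against libraries 12 and 5). Of the 44 members only Ifi27 rose and 0 fell, where 1.29% of all genes rose and 0.37% fell. Ifi27 had 118 and 113 CPM in CCl4 chow livers, against 58.2 and 67.3 CPM in OO chow livers (log2 change 0.88 ± 0.20, edgeR adjusted p = 0.0462). The median over the members was 0.26, with 0.03 against library 12 alone and 0.43 against library 5 alone. Samd9l was next, at 65.2 and 91.5 CPM with CCl4, against 47.6 and 41.2 CPM (log2 change 0.82 ± 0.22, edgeR adjusted p = 0.0894). Irgm1 was level, with 73.9 and 71.8 CPM in CCl4 chow livers and 75.5 and 70.5 CPM in OO chow livers. Monocyte markers summed to 466 to 922 CPM with CCl4 and 207 to 483 CPM without, with 1 of 6 rising. T and NK cell sums were 7.30 to 10.6 CPM with CCl4 and 4.94 to 6.64 CPM without, with Ncr1 rising of 7 tested, and B cell sums 10.1 to 10.3 CPM with CCl4 and 3.71 to 5.06 CPM without. The part of these cells in the result was not tested. The call was lost without library 5, 16 or 17 and with the sub-study as a term, and without library 12 there were 3.

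Whether ethanol acted differently in CCl4 and OO livers was tested as a difference of the ethanol effects. No member passed with edgeR, where 0.14% of all genes passed in either direction. At an unadjusted p under 0.05 there were 3 of the 44 members and 1300 of all 14315 genes, and DESeq2 called 0 members. The median difference, CCl4 minus OO, was 0.22 on the log2 scale. It was 0.35 with library 12 as the only OO chow library and 0.03 with library 5. Ifih1 differed by 0.02 ± 0.14 and Trim30a by 0.78 ± 0.25 (edgeR adjusted p = 0.993 and 0.324). The comparison shares all its libraries with those above.

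At day 0, CCl4 livers were compared with OO livers (2 libraries each). The members Zbp1 and Irgm1 fell and 0 rose, where 1.11% of all genes fell and 0.947% rose. Zbp1 had 2.76 and 4.25 CPM in CCl4 livers, against 11.3 and 10.2 CPM in OO livers (log2 change −1.64 ± 0.32, edgeR adjusted p = 0.0237). Irgm1 had 52.7 and 48.6 CPM in CCl4 livers, against 76.2 and 83.0 CPM in OO livers (log2 change −0.65 ± 0.13, edgeR adjusted p = 0.0305). The groups were apart for both genes. All 8 GTPase estimates were negative, with Iigp1 at 308 and 304 CPM in CCl4 livers, against 441 and 525 CPM in OO livers (log2 change −0.66 ± 0.19, edgeR adjusted p = 0.0968). The effectors were split, 13 positive and 15 negative, and Ifi27 stood at 95.3 and 93.3 CPM in CCl4 livers, against 63.2 and 71.1 CPM in OO livers (log2 change 0.49 ± 0.21, edgeR adjusted p = 0.254). Of 79 other pathway genes 3 fell, namely Ifitm2, Tap1 and Ifi47, and 0 rose. Kupffer markers summed to 378 to 398 CPM with CCl4 and 623 to 699 CPM without, with 1 of 8 falling. B cell markers summed to 10.5 to 10.98 CPM with CCl4 and 2.39 to 5.59 CPM without, with 0 of 4 called, and sums of monocyte, plasmacytoid and endothelial markers were also apart, with 0 called. Their part in the result was not tested. Leaving out any of the 4 libraries ended all member calls, while DESeq2 called 7 and the 4 libraries fitted alone gave 15.

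Comparisons of OO livers with their own day 0 were added after the data were seen. In OO chow livers of days 20 and 23 against OO day 0, 0 members passed with edgeR, with 0.0838% of all genes called in either direction. At an unadjusted p under 0.05 there were 22 of the 44 members, all with higher estimates, and 1957 of all 14315 genes in either direction. DESeq2 called 5 members, and library 12 alone gave 5 that rose. The median log2 change was 0.65, and in 29 members both chow libraries lay above both day 0 libraries, as they did in 26% of all genes tested. Kupffer marker sums were also apart, at 965 and 1454 CPM in OO chow livers and 623 and 699 CPM at day 0, as were monocyte sums, at 207 and 483 CPM in OO chow livers and 126 and 146 CPM at day 0. So were sums of T and NK cell markers, 4.94 and 6.64 CPM in OO chow livers and 3.85 and 4.31 CPM at day 0, of plasmacytoid dendritic cell markers, 18.1 and 23.1 CPM in OO chow livers and 11.9 and 12.3 CPM at day 0, and of endothelial markers, 462 and 474 CPM in OO chow livers and 360 and 433 CPM at day 0. No gene of these lists passed, and their part was not tested. Gbp3 had 15.5 and 14.7 CPM in OO chow livers, against 8.63 and 7.27 CPM at day 0 (log2 change 0.93 ± 0.19, edgeR adjusted p = 0.0869). Irf7 had 69.3 and 49.1 CPM, against 28.2 and 29.0 CPM at day 0 (log2 change 1.05 ± 0.26, edgeR adjusted p = 0.106). In OO ethanol livers of days 20 and 23 against OO day 0, Ifih1 alone fell and 0 rose, where 1.25% of all genes fell and 2.05% rose. It had 47.5, 54.3, 48.1 and 48.7 CPM with ethanol, against 67.0 and 67.2 CPM at day 0 (log2 change −0.44 ± 0.10, edgeR adjusted p = 0.03). The median of the members was −0.19. T and NK cell markers summed to 2.12 to 3.27 CPM with ethanol and 3.85 to 4.31 CPM at day 0. Of these Cd4 fell (log2 change −1.84 ± 0.46, edgeR adjusted p = 0.0457). Plasmacytoid sums were 14.3 to 18.2 CPM with ethanol and 11.9 to 12.3 CPM at day 0, with 0 called. Kupffer, monocyte, B cell and endothelial sums overlapped. The part of these cells in the result was not tested. The call of Ifih1 was lost without library 1, 2, 6 or 15, and 4 members passed without library 13.

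Members with and without an ISRE match in the promoter were counted apart, and the differences between them were not tested. In CCl4 chow livers at day 20 against CCl4 day 0, 13 of 18 members with a match and 10 of 13 without one rose. Among all other tested genes with a RefSeq promoter, 14.4% of 416 with a match and 6.83% of 10763 without one rose. In OO livers under ethanol against chow, 7 of 18 members with a match and 9 of 13 without one fell, and among other genes 7.90% of 405 with a match and 3.23% of 10474 without one did. In CCl4 against OO livers under ethanol, 5 of 18 members with a match and 6 of 13 without one rose, and among other genes 17.1% and 12.1% did. In CCl4 ethanol livers against CCl4 day 0, 6 of 18 members with a match and 2 of 13 without one rose. The shares of other genes that rose there were 14.9% with a match and 11.4% without one. With ethanol against chow in CCl4 livers, 2 of 18 members with a match and 0 of 13 without one fell. Of other genes, 0.962% with a match and 0.678% without one did. These are descriptions of the letters in a window of 300 bases and say nothing about binding.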

How the data were processed

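Liver RNA was made into Illumina TruSeq mRNA libraries, per the labels' protocols. For each library the authors deposited a table of unnormalised counts, in whole reads by gene symbol. The submitters' processing notes name the aligner GSNAP, the build mm10 and DESeq2 1.12.3, without their settings. How reads were assigned to genes, from which annotation and with or without strand, is not given in the sources used here. Rows that name no gene (5 per table, 47.0% to 58.6% of the reads listed) entered neither library sizes nor tests. File names give another day than the labels, which were followed.

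After filterByExpr and TMM scaling, all genes were modelled together in edgeR 4.0.16 (R 4.3.3). The fit of 8 groups held 14778 genes and 7 residual degrees of freedom. For comparisons with OO chow, libraries of days 20 and 23 shared a mean, which gave 6 arms, 14315 genes and 9 residual degrees of freedom. A gene is called at a Benjamini-Hochberg adjusted p under 0.05 by the quasi-likelihood test, adjusted over all genes tested. Alternatives used DESeq2 1.42.0, limma 3.58.1 with sequencing lane as a random block, RLE scaling, other filters, other designs (1, with the sub-study as a term, added after the data were seen) and leaving out libraries. No library pair of a group looked like a repeat deposit, since the chi-square per degree of freedom ran from 3.93 to 78.4. The lowest value was that of CCl4 day 0 libraries 3 and 4, by far the most alike pair. The other pairs ran from 19.4 to 78.4. How much of the spread between libraries 3 and 4 is technical was not tested. The steps were tested on simulated data.

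The members and gene lists were chosen with earlier results of these data known. The genes named are the called ones with the smallest p in a comparison (at most 5 members and 3 other pathway genes), a fixed list of 18 members and 8 pathway genes, and members whose groups were extreme, as a description. Of the fixed list, 1 pathway gene is not reported here. Mx1, Samd9l and Oas2 and the ISRE counts were taken up after their values were seen. Positions are from GENCODE M21 on mm10, and sequences from RefSeq on GRCm38.p6, the same assembly.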

Additional observations from a re-analysis of the deposited data

How the results depend on the processing

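Counts of called members are compared here with those of the report. For CCl4 against OO at day 0 (2 called), DESeq2 gave 7, the compared libraries alone 15 and the 6-arm fit 1. For ethanol against chow in CCl4 livers (2), DESeq2 gave 6 and the compared libraries alone 0. For ethanol against chow in OO livers (20), the compared libraries alone, the fit without libraries 6 and 12, and library 5 as the only chow library each gave 0. For CCl4 against OO under chow (1), DESeq2 gave 2, the compared libraries alone 0, the fit without libraries 6 and 12 gave 3, day 20 libraries alone 0, library 5 as the only chow library 2 and the sub-study as a term 0. For OO chow against OO day 0 (0), DESeq2 and the day 20 library alone each gave 5. For OO ethanol against OO day 0 (1), no filter, the compared libraries alone, the fit without libraries 6 and 12, and day 20 libraries alone each gave 0, and DESeq2 gave 5. The cause of these shifts was not tested.

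Leaving out 1 library at a time gave 0 to 0 for CCl4 against OO at day 0, 10 to 22 for the same under ethanol, 0 to 2 for ethanol in CCl4 livers, 6 to 14 for CCl4 chow day 20 against CCl4 day 0, 4 to 11 for CCl4 ethanol day 20 against CCl4 day 0, 0 to 31 for ethanol in OO livers, 0 to 3 for CCl4 against OO under chow, 0 to 0 for the difference of ethanol effects, 0 to 5 for OO chow against day 0 and 0 to 4 for OO ethanol against day 0. An arm left with 1 library borrows its spread from the rest of the fit. For single named genes, 3569 of the alternative values kept their side of the threshold, 185 lost a call, 58 gained one and 0 changed the sign of a call. No paired analysis was possible because the labels number the libraries without repeats, so groups share no number. A term for the sub-study named in the titles, added after the data were seen, gave 27 called members for ethanol in OO livers and 0 for the difference of ethanol effects.

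With 1 to 4 libraries a group, sizeable differences can be missed, and Isg15 was 2.12-fold lower with ethanol in CCl4 livers without passing. Members with few reads, such as Oas1b at 0.679 to 3.95 CPM, are the least precise. OO chow rests on libraries of different days and sub-studies, 1 of which carries pancreatic transcripts.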

Other observations

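Values of 3 pathway genes outside the members are given here. Gbp11 had 26.7, 14.2, 8.59 and 28.9 CPM in OO ethanol livers (libraries 13, 14, 15 and 6), against 5.93 and 6.63 CPM in OO chow livers. It was the only one of the 79 pathway genes that rose with ethanol there (log2 change 1.64 ± 0.46, edgeR adjusted p = 0.0451). Ifnlr1, a subunit of the lambda interferon receptor, had 1.60, 1.41 and 1.09 CPM in CCl4 ethanol livers, against 0.396, 0.418 and 0.443 CPM in OO ethanol livers at day 20 (log2 change 1.70 ± 0.35, edgeR adjusted p = 0.00506). Gbp10 had 2.19, 1.23 and 1.52 CPM in CCl4 ethanol livers, against 9.22 and 6.44 CPM in CCl4 chow livers, and did not pass there (log2 change −2.22 ± 0.49, edgeR adjusted p = 0.0559). Exons of Gbp10 overlap those of Gm43302 on the same strand over 1792 bases, and GENCODE M21 lists Gbp11 as a polymorphic pseudogene. The share of 50-base stretches found in other genes was not worked out outside the members, so these values are uncertain. All 3 genes were singled out after their values were seen.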
